A study of Homo sapiens with 16 samples.

Results

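Chemokine genes, 10 in all, were examined across treatment with gefitinib, AZ1366 or both: CXCL10, CXCL11, CCL2, CCL5, CXCL16, IL8 (the older symbol of CXCL8, interleukin 8), CXCL1, CXCL2, CXCL3 and CCL20. They are 10 of the 24293 loci in the abundance table, and each symbol had 1 row. The genes were chosen from the chemokine family with earlier results of the same libraries known: CXCL10, CXCL11 and CCL2 for their level with gefitinib and IL8 for its level with AZ1366. Those differences are therefore given as a description, with no test.

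The cells were HCC4006, an established line of human lung adenocarcinoma whose EGFR gene carries an activating mutation. Polyadenylated RNA was sequenced from 4 groups of 4 libraries: gefitinib, an inhibitor of the EGFR kinase, at 100 nM; AZ1366, an inhibitor of the tankyrase enzymes, at 100 nM; the combination of both at 100 nM each; and DMSO vehicle. Cells grew for 24 hours after plating and were then treated for 24 hours, and all groups share the line and its EGFR mutation. Nothing in the labels tells whether replicate libraries stem from different dishes; p-values here reflect the scatter of these libraries alone, and that scatter may be technical.

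Chemokines are small secreted proteins that draw white blood cells along a gradient, and the receptor a chemokine binds decides which cells follow it. CXCL10 and CXCL11 bind CXCR3 on activated T cells and natural killer cells and are classical interferon-induced genes, while CCL2 draws monocytes through CCR2. IL8, CXCL1, CXCL2 and CXCL3 bind CXCR2 on neutrophils, IL8 also binds CXCR1, and their transcription is a textbook response to NF-kB and AP-1. In lung tumours both kinds can be made by the cancer cells themselves, and a culture of a cancer line holds no recruited white cells.

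The 250 bases before the transcription start of these genes hold different sets of short motifs. They are printed for CXCL10, CXCL11 and IL8 because the CXCR3 ligands were highest with the combination and IL8 with AZ1366, and for CXCL1, CXCL2 and CXCL3 as the relatives of IL8. RefSeq promoters (GRCh38.p14) were matched for 7 of the 10 genes; CCL2, CCL5 and CXCL16 had no match. Both strands were searched for the NF-kB consensus (kB), for its IL8-type form GGAATTTCC, for the interferon-response element (GAAA, any 2 bases, GAAA), for the AP-1 site TGACTCA and for the TEAD site GGAATG, and every sequence reads 5′ to 3′ on the strand of its gene with matches in capitals. The CXCL10 promoter (chr4:76023498-76023747, minus strand) held kB matches 177 to 168 and 122 to 113 bases before the start and an interferon-response match 221 to 212 bases before it. The CXCL11 promoter (chr4:76036071-76036320, minus strand) held a kB match at 76 to 67 bases, with TGACTCA just before it at 87 to 81.
CXCL10: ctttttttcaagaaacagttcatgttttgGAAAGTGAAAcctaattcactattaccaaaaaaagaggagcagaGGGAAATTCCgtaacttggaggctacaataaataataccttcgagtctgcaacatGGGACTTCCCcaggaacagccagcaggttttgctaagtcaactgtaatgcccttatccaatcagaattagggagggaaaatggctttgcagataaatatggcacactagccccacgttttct
CXCL11: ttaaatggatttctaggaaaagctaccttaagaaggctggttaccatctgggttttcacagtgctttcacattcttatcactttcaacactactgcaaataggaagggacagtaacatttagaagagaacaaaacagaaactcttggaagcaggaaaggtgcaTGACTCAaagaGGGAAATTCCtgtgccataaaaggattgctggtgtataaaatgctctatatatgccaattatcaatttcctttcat

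The last 150 bases before the start of IL8 (chr4:73740419-73740568, plus strand) held TGACTCA at 137 to 131 and GGAATTTCC at 91 to 83. For CXCL1 (chr4:73869293-73869392, plus strand), CXCL2 (chr4:74099196-74099295, minus strand) and CXCL3 (chr4:74038690-74038789, minus strand) the last 100 bases are shown. These paralogs carry the same kB match at nearly the same place, 79 to 69 bases before the start in CXCL1 and CXCL3 and 78 to 68 in CXCL2. It contains GGAATTTCC and matches the kB consensus on both strands.
IL8: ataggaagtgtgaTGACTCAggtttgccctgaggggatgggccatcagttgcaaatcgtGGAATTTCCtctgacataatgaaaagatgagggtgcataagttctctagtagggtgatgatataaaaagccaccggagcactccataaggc
CXCL1: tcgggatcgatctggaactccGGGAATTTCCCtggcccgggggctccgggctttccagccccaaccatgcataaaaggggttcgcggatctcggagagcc
CXCL2: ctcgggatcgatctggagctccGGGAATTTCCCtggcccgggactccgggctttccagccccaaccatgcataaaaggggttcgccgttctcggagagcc
CXCL3: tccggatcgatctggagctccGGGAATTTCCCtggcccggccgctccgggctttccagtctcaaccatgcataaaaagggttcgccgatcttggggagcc

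CCL20 held a kB match at 79 to 70 and GGAATG at 45 to 40, both on the reverse strand. GGAATTTCC lies inside most of these kB matches, those of CXCL10 at 177 to 168 and CXCL11 included, so the motifs are not independent counts. Of 35116 promoter windows of the same 250 bases, 5.21% held the kB consensus, 0.413% GGAATTTCC, 3.02% the interferon-response element, 4.2% TGACTCA and 11.9% GGAATG. A match describes the letters and does not show that a factor binds there.

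Abundance is given in FPKM, fragments scaled by transcript length and library size, so levels of different genes can be set side by side. The summed FPKM of a library ran from 433357 to 478179; the reads behind each value are unknown, which leaves depth and counting error unstated. DUSP6, a feedback target of the EGFR pathway, stood at 2.71 ± 0.235 FPKM with gefitinib, 22.8 ± 2.63 with AZ1366, 2.99 ± 0.403 with the combination and 23.5 ± 0.334 with vehicle (SD, n = 4 each). AXIN2, a target of the Wnt pathway that tankyrase inhibitors act on, averaged 0.0520 FPKM with gefitinib, 0.0202 with AZ1366, 0.0255 with the combination and 0.0746 with vehicle, all close to 0. All 6 epithelial markers were abundant (EPCAM 211 to 305 FPKM), and of 3 lung adenocarcinoma lineage markers NKX2-1 reached 1 FPKM. The leukocyte markers PTPRC and CD3E were at most 0.139 and 0.0131 FPKM and MS4A1 was at 0 in all 16 libraries. HBB, a red-cell gene kept in the same list, was also at 0 throughout. CSF1R ran from 2.42 to 4.63 FPKM, CD14 from 0.369 to 0.899, ITGAM from 0.295 to 0.873 and FCGR3A from 0 to 0.0976. The summed level of the 9 genes of the leukocyte list was nonetheless 54.0 to 58.9 FPKM with gefitinib, 43.2 to 49.9 with AZ1366, 62.9 to 69.4 with the combination and 36.8 to 41.3 with vehicle, most of it CD68, a lysosomal protein (33.5 to 63.0). Summed endothelial markers, mostly KDR, were 2.25 to 2.69 FPKM with gefitinib, 0.981 to 1.36 with AZ1366, 3.57 to 3.94 with the combination and 0.717 to 0.818 with vehicle. The 5 fibroblast markers in the table summed to 3.75 to 4.02 FPKM with gefitinib, 2.05 to 2.66 with AZ1366, 3.36 to 3.77 with the combination and 2.28 to 2.72 with vehicle, and the 6 epithelial markers to 2875 to 3165, 2720 to 3428 and 2463 to 2705 with gefitinib, AZ1366 and the combination and 3664 to 4154 with vehicle. The part of these marker sums in the chemokine levels was not tested.

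The summed FPKM of the 10 chemokine genes was 310 to 336 with gefitinib, 148 to 162 with AZ1366, 422 to 450 with the combination and 80.6 to 94.7 with vehicle, and most of it was CCL2 and CXCL16. Of the 10 genes, 5 reached a mean of 1 FPKM over the 16 libraries and entered the test across loci: CXCL10, CXCL11, CCL2, CXCL16 and IL8. CXCL10 and CXCL11 passed this filter only through the gefitinib and combination libraries, where they are high, so their differences from vehicle and AZ1366 could hardly have failed and count as no support. CCL5, just below the filter at 0.928 FPKM, and CXCL1, CXCL2, CXCL3 and CCL20, at 0.124 to 0.376 FPKM, were compared by exact permutation instead.

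**Figure D1:**
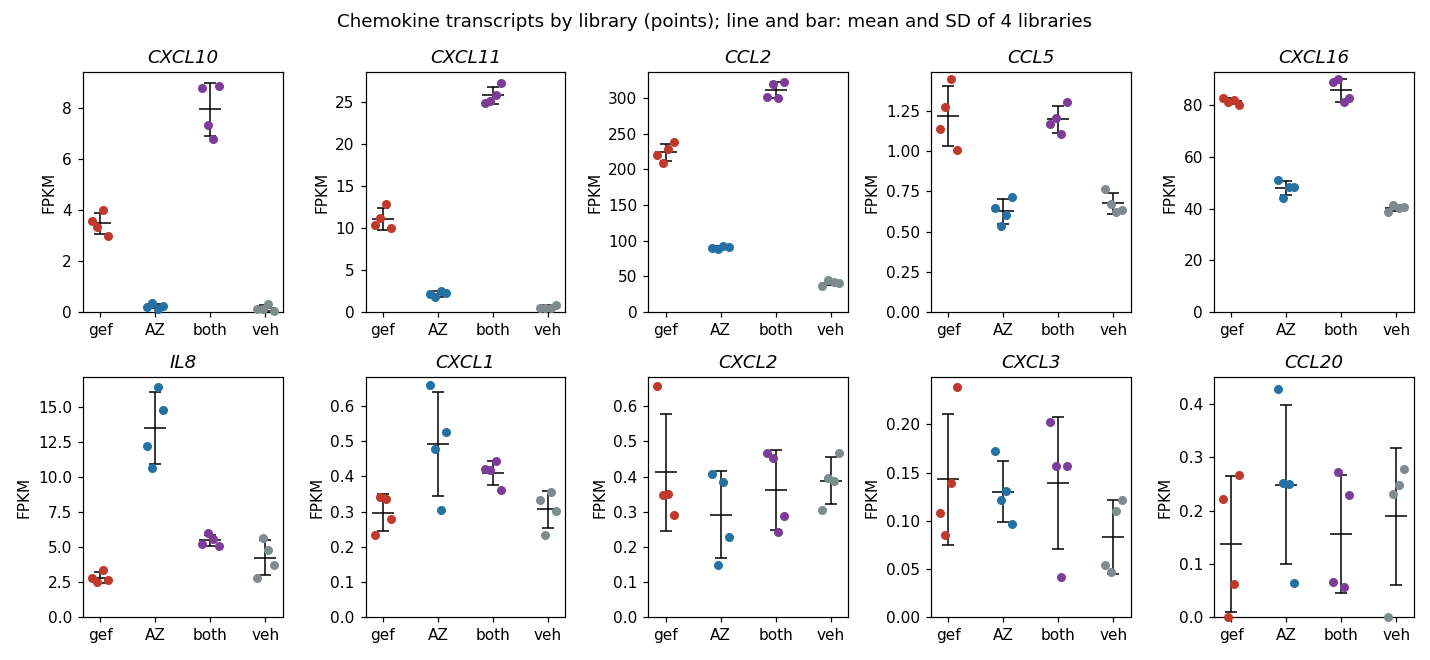
FPKM of each chemokine gene (linear axes from 0) in the 4 libraries of each group, with gef for gefitinib, AZ for AZ1366, both for the combination and veh for vehicle; points are libraries and the line and bar give the mean and SD (n = 4). CXCL10, CXCL11, CCL2, CCL5 and CXCL16 stand above vehicle in every gefitinib and combination library, whereas IL8 peaks with AZ1366 and CXCL2, CXCL3 and CCL20 overlap across all groups.

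The CXCR3 ligands were nearly silent with vehicle and high with gefitinib, and higher again with the combination. CXCL10 stood at 3.59, 3.34, 3.98 and 2.99 FPKM in gefitinib libraries, at 0.214, 0.344, 0.139 and 0.237 in AZ1366 libraries, at 8.77, 7.33, 6.80 and 8.83 in combination libraries and at 0.119, 0.113, 0.326 and 0.0396 in vehicle libraries. Gefitinib and combination libraries overlapped with no other group, and AZ1366 overlapped with vehicle. The mean with gefitinib was 23.3 ± 9.67 times that with vehicle and the mean with the combination 53.1 ± 22.1 times it (SE of the ratio, n = 4 per group), ratios whose error comes mostly from the low vehicle libraries. Its log2 change with gefitinib was 1.96 with 1 FPKM added and 3.95 with 0.1 added. In bulk RNA, more cells that express a gene and more RNA per cell cannot be told apart. AZ1366 alone gave a log2 change of 0.10 ± 0.091 in FPKM + 1 (SE; limma adjusted p = 0.329), which did not pass the threshold of 0.05 and was -0.23 after a correction for transcript length and GC content (adjusted p = 0.0527). CXCL10 in the combination was 2.28 ± 0.201 times its level with gefitinib alone, a log2 change of 0.99 ± 0.091, higher in 4 of 4 libraries. This comparison uses the gefitinib level for which CXCL10 was chosen and is given with no test.

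CXCL11 followed the same order at a higher level, and it was also higher with AZ1366 alone than with vehicle. It measured 10.3, 11.2, 12.9 and 10.0 FPKM with gefitinib, 2.15, 1.77, 2.56 and 2.24 with AZ1366, 24.9, 25.2, 25.8 and 27.2 with the combination and 0.494, 0.488, 0.553 and 0.884 with vehicle. No group overlapped with another: the combination was highest, then gefitinib, AZ1366 and vehicle. The means were 18.4 ± 3.05, 3.61 ± 0.624 and 42.6 ± 6.71 times vehicle with gefitinib, AZ1366 and the combination, in that order (SE, n = 4 per group). The log2 change of CXCL11 with AZ1366 against vehicle was 0.99 ± 0.089, given as a description. The combination stood at 2.32 ± 0.142 times gefitinib alone, a log2 change of 1.15 ± 0.089, also a description because CXCL11 was chosen for its gefitinib level.

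The CXCR3 ligands are neighbours on chromosome 4, and the table gives CXCL10 and CXCL11 the same hg19 interval, chr4:76932333-77033955, which ART3 also spans. Whether the counting used strand is not stated, so reads of overlapping genes may not be told apart; ART3 itself was at most 0.133 FPKM in any library. CXCL9, the remaining CXCR3 ligand and an interferon-gamma target, was named after its values were seen. It measured 0.0520 to 0.105 FPKM with gefitinib, 0 to 0.0438 with AZ1366 and 0.0840 to 0.117 with the combination, and was listed at 0 in all 4 vehicle libraries.

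CCL2 had the highest mean of the 10 chemokine genes in every group. With vehicle its libraries overlapped with those of CXCL16 (means of 41.0 and 40.4 FPKM), so the 2 genes were about equal there. CCL2 reached 220, 209, 228 and 238 FPKM with gefitinib, 89.1, 89.1, 93.0 and 91.8 with AZ1366, 301, 319, 300.1 and 322 with the combination and 36.9, 45.4, 41.6 and 40.3 with vehicle. The groups did not overlap and kept the order of CXCL11, with a spread that was narrower relative to the mean, though nearly equal in the combination. Mean CCL2 was 5.45 ± 0.276 times vehicle with gefitinib, 2.21 ± 0.0976 times with AZ1366 and 7.57 ± 0.352 times with the combination (SE, n = 4 per group). AZ1366 raised CCL2 by a log2 change of 1.13 ± 0.058 (limma adjusted p = 8.89e-10). The step from gefitinib to the combination was smaller, 1.39 ± 0.0456 times or 0.47 ± 0.058 on the log2 scale. It shrank to 0.28 after a correction for transcript length and GC content. This step uses the gefitinib level for which CCL2 was chosen and is given with no test. CCL2 lies at chr17:32582296-32584220 (hg19).

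CXCL16, a membrane-bound chemokine that is shed to draw CXCR6-bearing T cells, was the other abundant gene (chr17:4634723-4643223, hg19). Its FPKM was 83.1, 81.5, 82.2 and 80.1 with gefitinib, 51.0, 44.3, 48.3 and 48.3 with AZ1366, 89.1, 90.4, 81.4 and 82.9 with the combination and 38.8, 41.4, 40.5 and 40.7 with vehicle. Gefitinib and combination libraries overlapped each other and stood clear of the rest, and every AZ1366 library was above every vehicle library. Gefitinib raised it by a log2 change of 0.9997 ± 0.050 (limma adjusted p = 2.14e-11) and AZ1366 by 0.24 ± 0.050 (limma adjusted p = 0.000723). The combination differed from gefitinib by 0.07 ± 0.050 (limma adjusted p = 0.243), which missed the threshold, but by 0.18 under median-ratio scaling and 0.13 after the length and GC correction, both past it (adjusted p = 0.00342 and 0.0160).

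CCL5, which draws T cells and eosinophils, was scarce (chr17:34198496-34207377, hg19). It measured 1.14, 1.28, 1.45 and 1.01 FPKM with gefitinib, 0.646, 0.535, 0.605 and 0.715 with AZ1366, 1.17, 1.20, 1.11 and 1.31 with the combination and 0.767, 0.672, 0.624 and 0.636 with vehicle. The libraries with gefitinib, alone or combined, lay above all others, and AZ1366 overlapped with vehicle. Mean CCL5 was 1.80 ± 0.164 times vehicle with gefitinib and 1.77 ± 0.105 times with the combination (SE, n = 4 per group). Each of these differences had the smallest two-sided p that an exact permutation of 4 against 4 libraries can give, 0.0286. The adjusted p over the 30 tests of low genes was 0.143, so neither passed. That p goes under 0.05 after adjustment only if most of the 30 tests share it, so CCL5 alone could not have passed. Without the abundance filter, limma over 19605 loci called both, with log2 changes of 0.40 and 0.39 (adjusted p = 3.10e-05 and 1.98e-05).

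IL8, the neutrophil chemokine at the highest level in the AZ1366 libraries, did not share this order. It (chr4:74606223-74609433, hg19) stood at 2.79, 2.49, 3.38 and 2.64 FPKM with gefitinib, 12.2, 10.6, 16.4 and 14.7 with AZ1366, 5.24, 6.004, 5.61 and 5.08 with the combination and 2.81, 5.66, 4.81 and 3.73 with vehicle. AZ1366 libraries were the highest and overlapped with none, while vehicle libraries were scattered and overlapped with both gefitinib and the combination. The mean with AZ1366 was 3.17 ± 0.554 times that with vehicle (SE, n = 4 per group), a log2 change of 1.48 ± 0.14, given as a description. With gefitinib IL8 fell by 0.43 ± 0.14 on the log2 scale (limma adjusted p = 0.0142), but without the vehicle library of replicate 2 the change was -0.31 (adjusted p = 0.0631). The combination differed from vehicle by 0.33 ± 0.14 (limma adjusted p = 0.0421), a call that was lost when any 1 of 5 libraries was left out and a value that was -0.0068 after the length and GC correction (adjusted p = 0.957).

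With gefitinib present IL8 was lower than with AZ1366 alone. The combination held IL8 at 0.407 ± 0.0419 times its level with AZ1366, a log2 change of -1.14, and at 1.94 ± 0.153 times its level with gefitinib, a log2 change of 0.76 ± 0.14 (limma adjusted p = 0.000435). Neither pair of groups overlapped. Gefitinib libraries were 0.210 ± 0.0248 times AZ1366 libraries, a log2 change of -1.91. Both comparisons use the AZ1366 level for which IL8 was chosen and are given with no test. Set between the same groups, CXCL10 was 14.9 ± 2.85 times higher with gefitinib than with AZ1366, CXCL11 5.08 ± 0.477 times and CCL2 2.46 ± 0.0721 times.

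CXCL1, CXCL2 and CXCL3, the paralogs of the GRO group that act on CXCR2, were scarce. CXCL1 (chr4:74735109-74737019, hg19) measured 0.232, 0.343, 0.336 and 0.278 FPKM with gefitinib, 0.660, 0.478, 0.303 and 0.525 with AZ1366, 0.420, 0.417, 0.443 and 0.361 with the combination and 0.334, 0.234, 0.356 and 0.302 with vehicle. The combination libraries lay above gefitinib and vehicle libraries without overlap (exact permutation p = 0.0286, adjusted p = 0.143 for each), and 3 of 4 AZ1366 libraries were above all vehicle libraries. AZ1366 averaged 1.60 ± 0.278 times vehicle (SE, n = 4 per group; exact permutation p = 0.0857, adjusted p = 0.321); limma without the abundance filter called that difference, with a log2 change of 0.19 (adjusted p = 0.0178).

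CXCL2 (chr4:74962754-74964997, hg19) ran from 0.149 to 0.657 FPKM and CXCL3 (chr4:74902312-74904490, hg19) from 0.0421 to 0.239 over the 16 libraries. CCL20, the CCR6 ligand that draws dendritic and Th17 cells (chr2:228678558-228682280, hg19), ran from 0 to 0.429 and was listed at 0 in 1 gefitinib and 1 vehicle library. For these 3 genes every pair of groups overlapped, and the lowest p of 18 exact permutation tests was 0.171 (adjusted p = 0.545). Of 30 tests over the 5 scarce genes 0 passed, but as said for CCL5 a few separated genes could not have passed. An unadjusted p under 0.05 was found in 6 of these permutation tests, all of CCL5 and CXCL1. Without the abundance filter limma called 4 comparisons of CCL5 and 2 of CXCL1. Those of CXCL1 were AZ1366 against vehicle and gefitinib against AZ1366, each with an exact permutation p of 0.0857. The CXCL1 comparisons with an unadjusted permutation p under 0.05 were the combination against vehicle and against gefitinib. Limma called neither of them. The sequences of CXCL1, CXCL2 and CXCL3 are alike: 5.73%, 9.24% and 5.26% of their 50-base words occur in another of the trio, so some of their reads may have been counted for a relative.

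Counts of calls are given beside the share of all tested loci. The choice of genes and the filter fixed much of them, since CXCL10, CXCL11 and CCL2 were chosen for gefitinib and IL8 for AZ1366, and nothing is read from them. With gefitinib against vehicle 4 of the 5 tested genes were called higher and 1 lower, where 27.7% of all loci were higher and 36.9% lower. With AZ1366 against vehicle 4 were higher and 0 lower, against 18.6% and 39.8% of loci. The combination against vehicle had 5 higher and 0 lower, against 29.9% and 49.4%. Between the combination and gefitinib 4 were higher and 0 lower, against 15.3% and 37.2%; between the combination and AZ1366 4 were higher and 1 lower, against 26.9% and 35.7%; between gefitinib and AZ1366 4 were higher and 1 lower, against 28.1% and 17.9%. Comparisons with a common group share its libraries, so the counts are not separate evidence. The median log2 change of all loci was -0.06 with gefitinib, -0.10 with AZ1366 and -0.15 with the combination against vehicle; quantile scaling moved that of AZ1366 to -0.0019 and that of the combination to -0.02. The split of calls moved with it: AZ1366 against vehicle had 3423 higher and 3588 lower, beside 2168 and 4633 on the values as deposited, and the combination against vehicle 4565 and 4837, beside 3488 and 5753. The combination against gefitinib had 3027 higher and 3176 lower, beside 1780 and 4338, and gefitinib against AZ1366 2850 and 3164, beside 3273 and 2088. No call of a chemokine gene was lost under it.

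**Figure D2:**
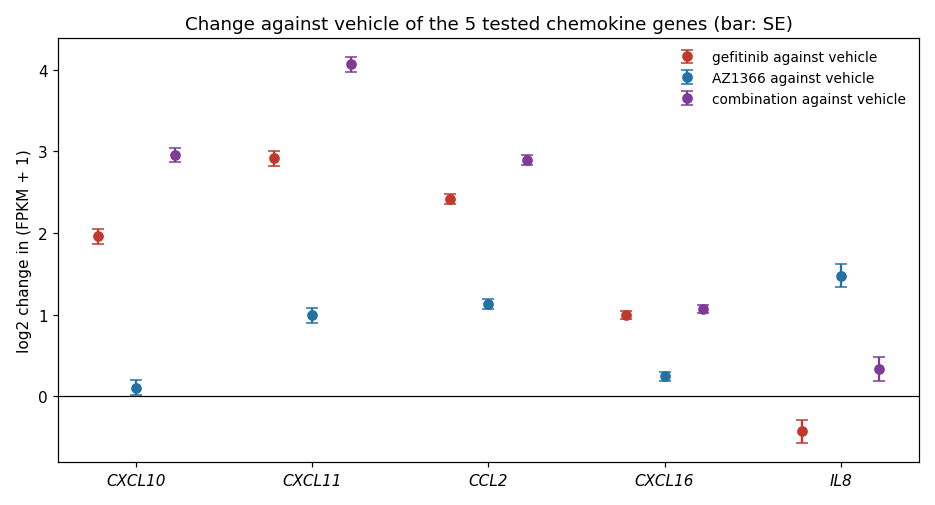
Log2 change in FPKM + 1 against vehicle of the 5 tested chemokine genes with gefitinib, AZ1366 and the combination; points are limma estimates and bars the SE. Gefitinib points are above 0 except for IL8 at -0.43, and the AZ1366 point is highest for IL8 at 1.48.

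Whether the compounds added up differed between genes. On the FPKM scale CXCL10 in the combination was 7.78 above vehicle, where the changes with each compound alone sum to 3.41, and CXCL11 was 25.2 above vehicle, where they sum to 12.1. CCL2 was 269.6 above vehicle beside a sum of 232, and CXCL16 45.6 beside 48.9. IL8 was 1.23 above vehicle beside a sum of 7.79.

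On the log2 scale the test asked whether the effect of gefitinib with AZ1366 present equals that without it. For CXCL10 the effect of gefitinib was a ratio of 34.0 with AZ1366 and 23.3 without it, a log2 difference of 0.89 ± 0.13 in FPKM + 1 (limma adjusted p = 0.00231). This difference rests on the pseudocount, since CXCL10 is near 0 without gefitinib: at 0.1 in place of 1 it was 0.66 with adjusted p = 0.397. For CCL2 the ratio was 3.42 with AZ1366 and 5.45 without it, a log2 difference of -0.66 ± 0.082 (limma adjusted p = 0.00115). In FPKM the order was the reverse: the step of CCL2 with gefitinib was 220 with AZ1366 and 183 without it. CXCL11, with ratios of 11.8 and 18.4, gave 0.16 ± 0.13 (limma adjusted p = 0.578), and with the smaller pseudocount its sign turned, to -0.51 (adjusted p = 0.246). CXCL16 gave -0.17 ± 0.071 (limma adjusted p = 0.279) and IL8 -0.71 ± 0.20 (limma adjusted p = 0.0926), neither past the threshold. The call was higher for 1 gene, CXCL10, and lower for 1, CCL2, beside 0.326% of all loci higher and 1.49% lower. The interaction contains the differences from vehicle for which CXCL10, CXCL11, CCL2 and IL8 were chosen. Nothing is therefore read from these counts, and the interaction p-values of these genes count as no support.

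**Figure D3:**
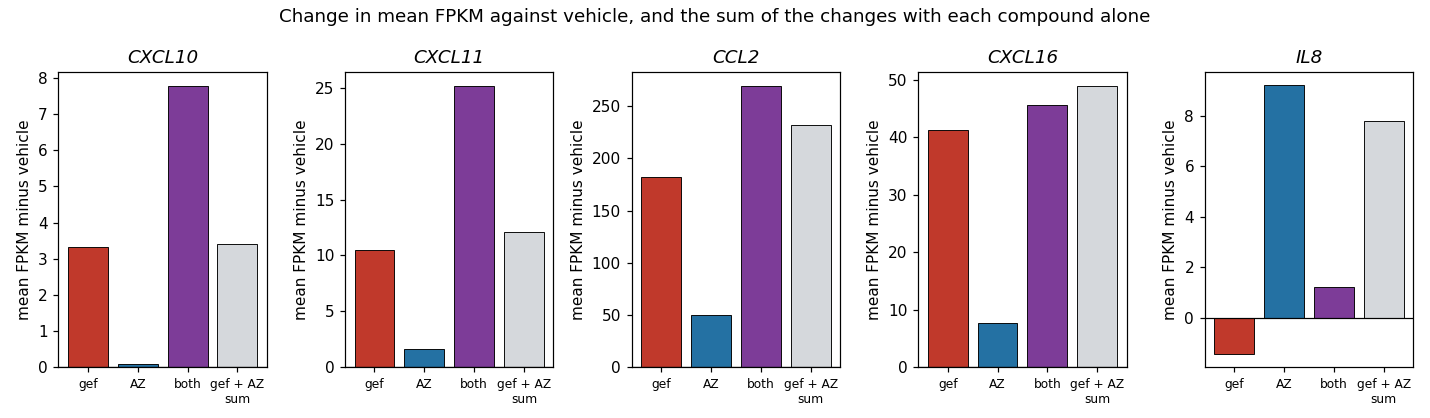
Mean FPKM minus the vehicle mean with gefitinib, AZ1366 and the combination (n = 4 libraries per group), beside the arithmetic sum of the changes with gefitinib and AZ1366 alone. The combination bar exceeds the sum for CXCL10 (7.78 and 3.41), CXCL11 (25.2 and 12.1) and CCL2 (269.6 and 232), and is far below it for IL8 (1.23 and 7.79).

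Other chemokines and receptors were taken from lists of 28 and 23 genes. Only 4 other chemokines reached the abundance filter, all 4 were higher with gefitinib than with vehicle (27.7% of all loci), and 2 were higher with AZ1366 (18.6% of all loci). CXCL17 and CCL26 (0.847 FPKM with vehicle) reached it only through the groups where they are high, so their differences from vehicle count as no support. CXCL17, a mucosal chemokine, averaged 2.98 ± 0.462 FPKM with gefitinib, 1.18 ± 0.218 with AZ1366, 4.58 ± 0.408 with the combination and 0.381 ± 0.130 with vehicle, the order of CXCL11 and CCL2. CXCL5, a neutrophil chemokine of the CXCR2 group, averaged 3.72 ± 0.508, 1.76 ± 0.156 and 3.73 ± 0.106 FPKM with gefitinib, AZ1366 and the combination, against 1.71 ± 0.186 with vehicle (SD, n = 4 each). Its log2 change was 0.80 ± 0.073 with gefitinib (limma adjusted p = 5.48e-08) and 0.02 ± 0.073 with AZ1366 (adjusted p = 0.795), where IL8 had -0.43 and 1.48. CXCL6, also a CXCR2 ligand and named after its values were seen, measured 0.743 to 1.14 FPKM with gefitinib, 0.495 to 0.950 with AZ1366, 1.19 to 1.52 with the combination and 0.226 to 0.376 with vehicle. CX3CL1, also below the filter and named after its values were seen, did not rise with gefitinib. It ran from 0.585 to 0.707 FPKM with gefitinib and 0.600 to 1.13 with vehicle. With AZ1366 CX3CL1 ran from 1.09 to 1.53 and with the combination from 0.888 to 1.38.

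Of 23 receptors 2 passed the filter. CXCR1, CXCR2 and CXCR3 were at most 0.0311, 0.0544 and 0.0522 FPKM in any library. CXCR4, the receptor of CXCL12, changed by a log2 of 0.56 with gefitinib and 0.44 with AZ1366 against vehicle. At 0.853 FPKM with vehicle, CXCR4 passed the filter only through the treated groups, so these differences count as no support. CCRL2, an atypical receptor, changed by 0.57 with AZ1366 against vehicle (limma adjusted p = 2.33e-05). CXCR7 (now ACKR3), which takes up CXCL11 and CXCL12 without classical signalling, was named after its values were seen. It measured 1.56 to 1.95 FPKM with gefitinib and 1.55 to 1.87 with the combination, against 0.157 to 0.263 with AZ1366 and 0.149 to 0.353 with vehicle, with no overlap between the libraries with and without gefitinib.

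Genes of the pathways that drive chemokine transcription are summarised over their tested members. Only the largest called changes per list and compound are named, so a gene named for 1 compound can also change with the other. Beside each list stand the shares of all tested loci, 27.7% higher and 36.9% lower with gefitinib and 18.6% higher and 39.8% lower with AZ1366. TLR3, DHX58, LTB and IL1RN, at 0.536 to 0.947 FPKM with vehicle, passed the filter only through the groups where they are high. Their differences from vehicle count as no support. Of 17 interferon signalling genes 13 rose and 3 fell with gefitinib (median log2 change 0.57), and 7 rose and 3 fell with AZ1366 (median 0.15; 9 and 3 with quantile scaling). IRF9, part of the interferon-activated factor ISGF3, rose by 1.25 with gefitinib and 0.73 with AZ1366, and its partner STAT2 by 0.89 and 0.27. USP18, a brake on the interferon receptor, rose by 1.13 with gefitinib. With AZ1366 SOCS3, an inhibitor of JAK signalling, fell by 0.46 (0.24 after the length and GC correction) and the interferon-gamma receptor IFNGR1 rose by 0.43. With gefitinib SOCS3 fell by 0.39 and IFNGR1 rose by 0.57. Of 9 nucleic acid sensors 6 rose and 2 fell with gefitinib (median 0.70) and 3 rose and 2 fell with AZ1366 (median -0.11, which quantile scaling turned to 0.01). Among them TLR3, a sensor of double-stranded RNA, rose by 1.73 with gefitinib and 0.42 with AZ1366, and DDX58 (RIG-I) by 0.92 and 0.25. IFIH1 (MDA5) rose by 0.87 with gefitinib. MB21D1 (cGAS) fell by 0.33 with gefitinib and 0.49 with AZ1366, and TMEM173 (STING) rose by 0.85 and 0.44.

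Of 22 tested NF-kB subunits and regulators 7 rose and 4 fell with gefitinib (median log2 change 0.04), and 2 rose and 10 fell with AZ1366 (median -0.21). With AZ1366 quantile scaling gave 5 and 10, and the length and GC correction 8 and 8 (median -0.01). On the values as deposited, the shares of all loci higher with gefitinib (27.7%) and lower with AZ1366 (39.8%) were near those of this list. The shares of all loci lower with gefitinib (36.9%) and higher with AZ1366 (18.6%) were above those of the list. BIRC3, an NF-kB target and ubiquitin ligase, rose by 1.27 with gefitinib and 0.60 with AZ1366. NFKBIA, the inhibitor that NF-kB induces against itself, rose by 0.89 with gefitinib and 0.54 with AZ1366. The adaptor TRAF1 rose by 0.86 with gefitinib. With AZ1366 MAP3K14 (NIK), the kinase of the alternative NF-kB pathway, fell by 0.78 and TNFAIP3 (A20), a brake on NF-kB, fell by 0.59. After the length and GC correction they fell by 0.45 and 0.38 with AZ1366. TNFAIP3 also fell by 0.50 with gefitinib. Of 10 cytokines 6 rose and 4 fell with gefitinib and 4 rose and 2 fell with AZ1366 (5 and 0 with quantile scaling). LTB, a lymphotoxin, rose by 2.65 and 0.69 with gefitinib and AZ1366, and the cytokine IL32 rose by 1.45 and 0.53. CSF2, the growth factor GM-CSF, fell by 0.73 with gefitinib. IL1RN, the interleukin 1 receptor antagonist, rose by 0.61 with AZ1366 and 0.27 with gefitinib.

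AU-rich elements in chemokine messages are bound by proteins that speed or slow their decay. The list of 6 tested decay factors also held the nuclease ZC3H12A, which is not of this kind. With gefitinib 0 of the 6 rose and 3 fell (median log2 change -0.15), and with AZ1366 0 rose and 4 fell (median -0.26). Of all loci 36.9% and 39.8% were lower with gefitinib and with AZ1366. With gefitinib ZFP36L2 fell by 0.64 and the stabiliser ELAVL1 by 0.31, and ELAVL1 also fell by 0.23 with AZ1366. HNRNPD fell by 0.23 with gefitinib and 0.29 with AZ1366. ZFP36L1 and the nuclease ZC3H12A fell by 0.47 and 0.43 with AZ1366. After the length and GC correction ELAVL1 fell by 0.21 with gefitinib and ZC3H12A by 0.20 with AZ1366, and under median-ratio scaling HNRNPD fell by 0.17 with AZ1366, all still called. Of the 3 proteases that process chemokines, ADAM17 and DPP4, which trims CXCL10, rose with gefitinib by 0.45 and 0.39, and ADAM10, a sheddase of CXCL16, fell by 0.25 with AZ1366, a call that median-ratio scaling (-0.13, adjusted p = 0.0530) and the length and GC correction (-0.13, adjusted p = 0.0649) both ended. The medians over all tested loci given above are the setting for all these lists, whose genes were picked with earlier results known.

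**Figure D4:**
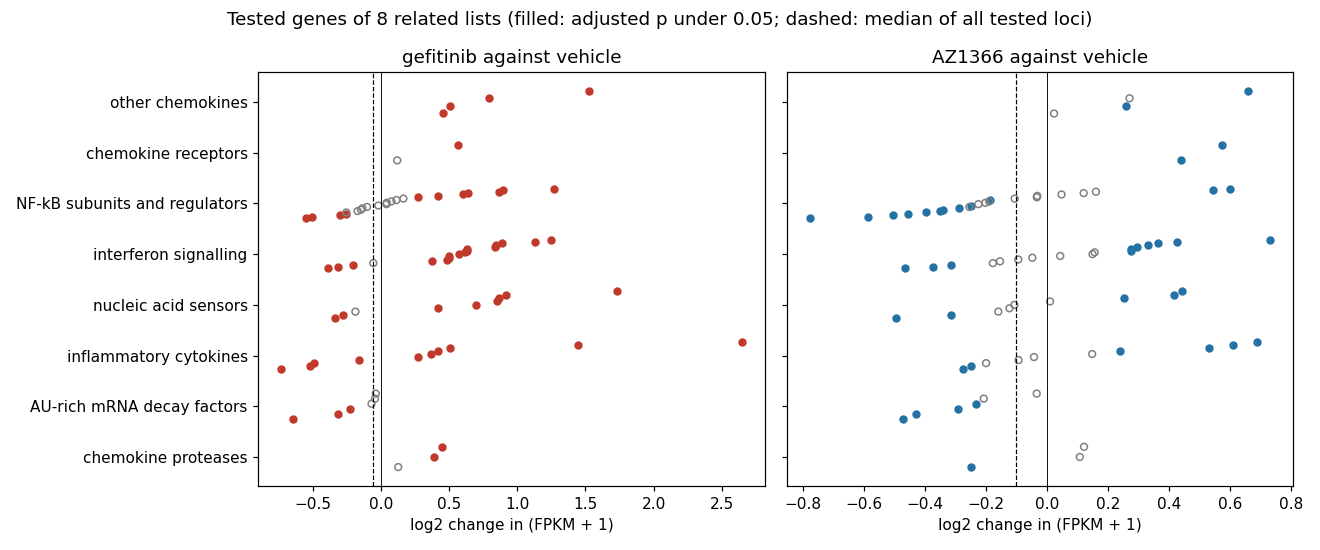
Log2 change in FPKM + 1 with gefitinib against vehicle (left, red) and AZ1366 against vehicle (right, blue) of every tested gene in 8 lists; filled points passed a limma adjusted p of 0.05, open points did not, and the dashed line is the median of all tested loci. The interferon signalling list has 13 genes filled to the right with gefitinib, and the NF-kB list 10 filled to the left with AZ1366, 8 after the length and GC correction.

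The loci whose profile over the 16 libraries was most like each gene were found by the root mean square difference in log2(FPKM + 1) after centring. For CXCL10 they were GSDMB (0.29), the matrix protease MMP7 (0.34) and LTB (0.35). For CXCL11 they were UBD (0.20), a ubiquitin-like protein of the interferon and TNF response, MMP7 (0.35) and LTB (0.39). UBD averaged 13.4 FPKM with gefitinib, 1.92 with AZ1366, 28.0 with the combination and 0.449 with vehicle, and it and LTB are listed in 7 and 8 rows of the table, so each value may hold only some of the gene's reads. For CCL2 they were NCOA7 (0.14), the death ligand TNFSF10 (0.17), known as TRAIL, and the galectin LGALS9 (0.18); TNFSF10 averaged 64.2, 26.7 and 94.3 FPKM with gefitinib, AZ1366 and the combination and 12.5 with vehicle. For CXCL16 they were ATP9A, WIPI1 and LUZP2, each at 0.07. IL8 was closest to SPRR1A (0.29), an envelope protein of squamous epithelium, SLITRK6 (0.34) and S100A2 (0.38), and SPRR1A averaged 2.14 FPKM with gefitinib, 7.38 with AZ1366, 4.33 with the combination and 2.36 with vehicle. The profiles of CCL5, CXCL1, CXCL2, CXCL3 and CCL20 spread by only 0.07 to 0.22 (SD of the log2 values), so many flat loci were close to them and none is named.

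**Figure D5:**
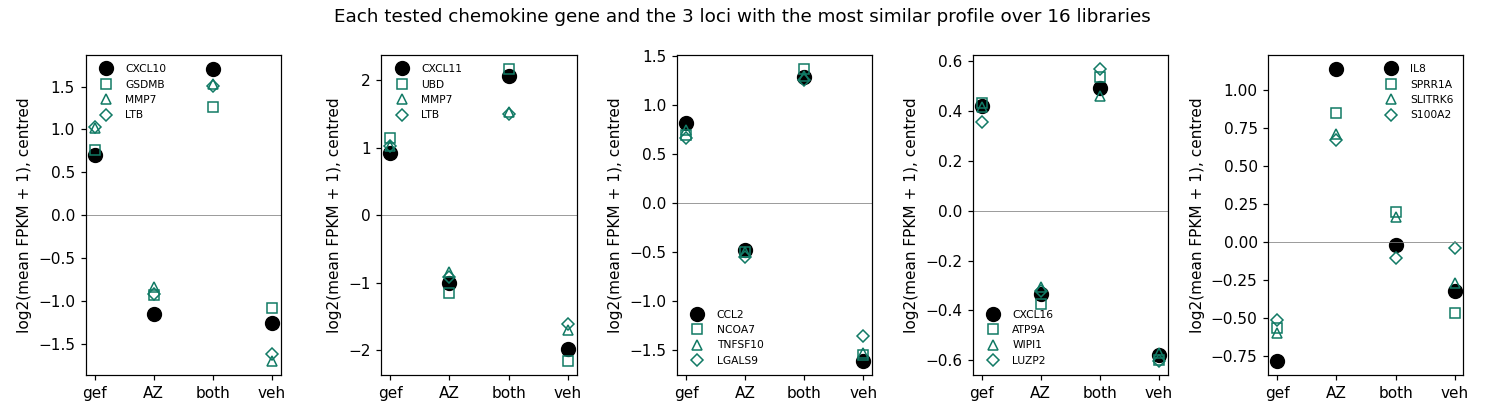
Log2(mean FPKM + 1) in each group, centred over the groups, of the 5 tested chemokine genes (black) and the 3 loci with the most similar profile over 16 libraries (open green symbols); gef is gefitinib, AZ is AZ1366, both the combination and veh vehicle. The neighbours of CXCL10, CXCL11, CCL2 and CXCL16 are lowest with vehicle, and those of IL8 are lowest with gefitinib and highest with AZ1366.

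Transcripts of these genes are short, 741 to 2222 bases, beside a median of 3341 for tested loci. Across 11461 loci, which are not independent replicates, the change was negatively related to transcript length, with a Spearman rho of -0.178 with gefitinib, -0.338 with AZ1366 and -0.306 with the combination against vehicle, and -0.434 for the combination against gefitinib. A correction of each library for length and GC content, added after seeing the data, left CXCL11 with a log2 change of 0.68 and CCL2 with 0.79 for AZ1366 against vehicle. CCL2 was still called, while the CXCL11 value is a description.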

How the data were processed

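Polyadenylated RNA of 16 HCC4006 libraries was sequenced, 4 per group as the labels give them. The deposited values are FPKM per locus; the genome hg19 and the tools Cuffdiff, Cufflinks 1.3.0 and TopHat 1.4.1 are named per the submitters' processing notes, and the annotation, strand setting and further scaling are not given in the sources used here. The file held 0 unused sample columns and 0 pairs of identical libraries. The chemokine genes and all lists were chosen with earlier results of these data known.

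Loci with a mean of at least 1 FPKM (11647) were tested by R 4.3.3 and limma 3.58.1 after taking log2(FPKM + 1). The model had 1 treatment factor, 12 residual degrees of freedom and variances moderated along the trend with mean abundance. Two-sided p-values were adjusted by Benjamini-Hochberg over all tested loci and called under 0.05. Adding 1 FPKM understates the change of low genes. Low chemokine genes were compared by two-sided exact permutation of mean FPKM (70 assignments), adjusted over 30 tests. The method was checked on simulated data.

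Named genes are the 10 chemokine genes, their 3 nearest loci, up to 3 called genes with the largest change per list and compound against vehicle, and DUSP6 and AXIN2. Alternatives were a pseudocount of 0.1, no filter, a minimum of 5 FPKM, quantile and median-ratio scaling, no trend, only the libraries compared, a replicate block, a minimum absolute log2 change of 1, leaving out each library, and, added after seeing the data, a length and GC correction (5 spline terms each; 98.4% of loci had both).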

Additional observations from a re-analysis of the deposited data

Results flagged for a closer look

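Among 40 groups of 4 libraries (10 genes in 4 treatments), 3 held a library far from the others, measured as its gap to the nearest library divided by the range of the group; chance gives about 1 in 20. CXCL11 was highest in the vehicle library of replicate 4 (0.884 FPKM; gap over range 0.834). CXCL2 was highest in the gefitinib library of replicate 1 (0.657 FPKM; 0.837), and CCL20 was listed at 0 in the vehicle library of replicate 1 (0.8293).

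The log2 effect of gefitinib with AZ1366 minus that without it was 0.89 for CXCL10 and -0.66 for CCL2. The CXCL10 value rests on the pseudocount. The sign for CCL2 rests on the scale, since its step in FPKM was larger with AZ1366. Both genes were chosen for their level with gefitinib, which the interaction contains, so these values are a description.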

How the results depend on the processing

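Of 773 values of single genes under other settings, 743 kept their direction and side of the threshold, 20 lost a call, 7 gained one and 3 changed sign. The sign changed for the CXCL11 interaction with a pseudocount of 0.1 (-0.51) and, after the length and GC correction, for CXCL10 with AZ1366 (-0.23) and IL8 with the combination (-0.0068), both against vehicle. The interaction, main count 1 higher and 1 lower, had 0 higher with a pseudocount of 0.1, at a minimum mean of 5 FPKM (CXCL10 is then not tested) and at a minimum log2 change of 1. It had 2 lower with quantile scaling and after the length and GC correction, where CXCL16 was called, and 0 lower at a minimum log2 change of 1. Leaving out each library gave 1 to 2 lower, with IL8 called without vehicle replicate 2, AZ1366 replicate 1 or AZ1366 replicate 2 (adjusted p = 0.0323, 0.0489 and 0.0416). Gefitinib against vehicle had 0 to 1 lower on leaving out each library. A minimum log2 change of 1 gave 0 lower for gefitinib, 2 higher for AZ1366 against vehicle and 1 higher for the combination against gefitinib; no filter gave 2 lower for gefitinib against AZ1366, CXCL1 being the addition. IL8 with the combination against vehicle missed the threshold without vehicle replicate 1 or 4 or combination replicate 1, 2 or 3 (log2 change 0.19 to 0.35, adjusted p = 0.0552 to 0.193) and with no filter (adjusted p = 0.0805). The cause was not tested.

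With the replicate number as a block, the counts of called chemokine genes were the same in each comparison (for the interaction 1 higher and 1 lower), and gefitinib against vehicle had 3361 loci higher and 4503 lower, beside 3226 and 4295 without it. Libraries that share a number correlated at -0.447 to 0.539 after removing group means, over 0.1 in 16 of 24 pairs, and 2 of 16 libraries were closest to their own number in every other group, so the numbers were not taken to pair the samples. All pairs of replicate 1 (0.207 to 0.539) and of replicate 3 (0.132 to 0.292) were over 0.1, and those of replicates 2 and 4 were not all so. The depth behind the FPKM is unknown, which limits CXCL1, CXCL2, CXCL3, CCL5 and CCL20 most.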
